A study of Mus musculus with 9 samples.

Results

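The 9 genes described here form the switch by which a cell sets its sensitivity to WNT signals: the 4 R-spondins *Rspo1*, *Rspo2*, *Rspo3* and *Rspo4*, their receptors *Lgr4*, *Lgr5* and *Lgr6*, and the membrane E3 ubiquitin ligases *Znrf3* and *Rnf43*. They were taken by symbol from the 32289 features of the single-cell RNA-seq matrices of mouse forelimb buds, and all 9 symbols were found in all 9 matrices. Each library held the cells of the forelimb bud pair of an embryo at E10.75, an age of 37 to 39 somites. Of the libraries, 3 were wild-type (Wt), 3 were *E1C8*Δ/Δ and 3 were *E1C5*Δ/Δ. Both mutants are homozygous for deletions of enhancers in the landscape of *Grem1*, whose product is secreted and blocks BMP signalling, and both form 4-digit limbs. The mice were kept on a Swiss Albino background, embryos of either sex were used, and as germline alleles the deletions are present in every cell of the mutants and not in the limb bud alone.

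R-spondins are secreted proteins that do not activate WNT receptors themselves. ZNRF3 and RNF43 mark Frizzled receptors and their co-receptors for removal from the cell surface, and an R-spondin bound to an LGR receptor draws these ligases away, so that more WNT receptor remains. *Znrf3* and *Rnf43* are themselves targets of WNT/β-catenin signalling, which closes a negative feedback loop. In the limb bud, RSPO2 is known for its role in maintaining the apical ectodermal ridge, the distal signalling epithelium marked by *Fgf8*.

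After filtering and removal of doublets 44654 cells were kept. Marker genes that include none of the 9 members gave 35324 mesenchymal cells, 1892 muscle progenitors, 2137 erythroid, 575 ectodermal, 617 endothelial and 207 myeloid cells, while 2496 cells passed no lineage's limits and 1397 passed those of several, and neither were used. The 6 mesenchymal markers summed to 1725 CPM (a gene's UMIs, scaled by all UMIs of the same cells of a library) in mesenchymal cells and to 49.6 to 179 CPM in the other lineages. Of the mesenchymal cells, 25613 were further assigned by marker scores to 11 regions, and 30.2% of mesenchymal cells lay near a limit of these assignments. The regions carry the codes of the study's 11 clusters, which came from unsupervised clustering, and several descriptive names are given here. The study calls its P3 cluster anterior and uses peripheral for a population not restricted to 1 cluster. The mesenchymal sums held between 16876714 and 255450703 UMIs, and the smallest libraries, *E1C8*Δ/Δ replicate 1 with 468 mesenchymal cells and Wt replicate 3 with 745, stood apart in size. No pair of libraries shared more than 0.5% of barcodes. All 3 Wt libraries were male, while 2 of 3 libraries of each mutant were female, so that sex is partly confounded with genotype. Of the libraries with Y-linked RNA, Wt replicate 1 and *E1C8*Δ/Δ replicate 3 also held 22.0 and 7.24 CPM of *Xist*, against at most 0.0967 CPM in the others. Of the libraries with high *Xist*, *E1C8*Δ/Δ replicate 1 held 3.14 CPM of Y-linked RNA, against at most 0.0408 CPM in the others. Whether these 3 libraries hold a trace of another embryo was not tested. *Grem1*, the targeted gene, was at 29.2 to 44.3 CPM in Wt mesenchyme and at 11.4 to 25.03 CPM in the mutants, without overlap. Its log2 fold change was -1.13 (adjusted p = 0.0039, edgeR), and -1.09 with embryo sex as a covariate (adjusted p = 0.0892, edgeR). The mutants also differed, at a mean of 12.5 CPM in *E1C8*Δ/Δ and 19.8 CPM in *E1C5*Δ/Δ (log2 difference -0.73, adjusted p = 0.0243, edgeR). For the protein the study describes the reverse order, with more GREM1 left in *E1C8*Δ/Δ. Gene levels are given as CPM per library and are compared between cells and genotypes, never between genes, since transcripts differ in how well a 3′ library captures them.

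The R-spondins were mainly mesenchymal genes, with the largest exceptions in the ectoderm for *Rspo2* and, at a lower level, *Rspo1*. Mean levels in mesenchyme were 5.90 ± 1.94 CPM for *Rspo1*, 10.67 ± 1.91 for *Rspo2*, 63.7 ± 7.87 for *Rspo3* and 22.8 ± 6.94 for *Rspo4* (SD, n = 9 libraries). In muscle progenitors these genes reached 3.08% to 6.54% of their mesenchymal level, and the 6 mesenchymal markers reached 3.61% to 16.7% there. In erythroid cells they reached 1.76% to 3.59%, against 2.49% to 3.17% for the mesenchymal markers, which is the level read here as free RNA. In muscle progenitors the R-spondins thus lay within or below the range of the markers, and in erythroid cells *Rspo1* (3.59%) and *Rspo4* (3.25%) lay just above it. In the endothelium *Rspo3* stood furthest above the mesenchymal markers, at 8.04 ± 2.27 CPM (SD, n = 7 libraries) or 12.4% of its mesenchymal level, against 2.91% to 3.86% for the markers and 3.59% to 6.06% for the other 3 ligands. In myeloid cells *Rspo1* was at 15.2%, from 5 UMIs, against 2.97% to 4.72% for the markers and 1.47% to 4.15% for the other 3 ligands. In ectodermal cells *Rspo1* was at 66.5% and *Rspo2* at 156% of the mesenchymal level, against 4.68% to 20.8% for the markers, while *Rspo3* at 9.79% and *Rspo4* at 4.77% lay within the range of the markers. The ectodermal *Rspo2* level differed among libraries, at 15.3 and 27.5 CPM in Wt, 13.9 and 21.3 CPM in *E1C8*Δ/Δ and 6.91 and 9.19 CPM in *E1C5*Δ/Δ, and it was not called against mesenchyme (log2 difference 0.56, adjusted p = 0.262, edgeR).

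**Figure D1:**
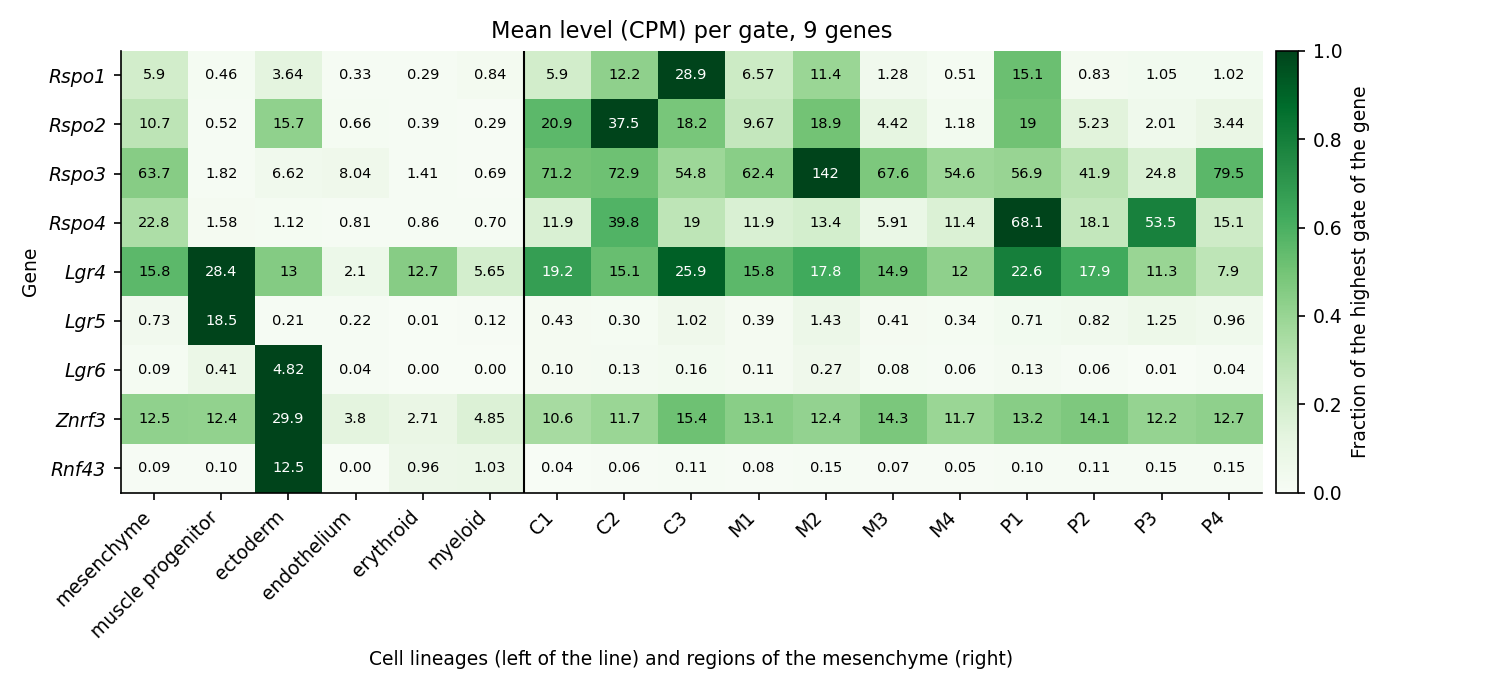
Mean CPM over libraries of each of the 9 genes (vertical axis) in 6 lineages and 11 mesenchymal regions (horizontal axis); the number in a cell is the mean CPM and the colour is its fraction of the highest level of the same gene. The R-spondins are highest in mesenchymal regions, *Lgr5* in muscle progenitors (18.5 CPM) and *Lgr6* and *Rnf43* in ectoderm (4.82 and 12.5 CPM).

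The share of mesenchymal cells with at least 1 UMI was compared after cells had been thinned to 10000 UMIs, because deeper cells show more genes. Shallower cells were left out, which removed 259 of the 11294 mesenchymal cells in Wt, 787 of the 12623 in *E1C8*Δ/Δ, and 366 of the 11407 that *E1C5*Δ/Δ had. The share was 33.3 ± 2.36% for *Rspo3*, 16.6 ± 5.10% for *Rspo4*, 8.86 ± 1.38% for *Rspo2* and 4.63 ± 1.15% for *Rspo1* (SD, n = 9 libraries). With all UMIs the shares were 55.5%, 35.5%, 19.7% and 10.3%. In erythroid cells, which should lack these ligands, the thinned shares were 1.43%, 0.953%, 0.433% and 0.349% in the same order, at a median of 32511 UMIs per cell against 28150 in mesenchyme. The remaining members were seen in 14.3 ± 2.43% of thinned mesenchymal cells for *Lgr4* and in 11.2 ± 2.04% for *Znrf3*.

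Each lineage was tested against the mesenchyme of the same libraries with edgeR's quasi-likelihood test and a block for the library. Of 39 pairs of a member and a lineage, 8 were called higher and 26 lower than in mesenchyme at an adjusted p under 0.05, a share to be read against the 65.4% of all genes tested that differed in these comparisons. The 8 include *Lgr4* in erythroid cells, whose direction turns in CPM, which gives 7 higher and 27 lower.

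Each receptor had its own distribution. *Lgr5*, known as a marker of WNT-responsive stem cells in several epithelia, was a muscle progenitor gene in this tissue. It stood at 22.8, 16.9 and 16.1 CPM in muscle progenitors of Wt replicates 1 to 3, at 24.3, 13.9 and 15.6 CPM in *E1C8*Δ/Δ and at 18.0, 19.2 and 19.9 CPM in *E1C5*Δ/Δ. Every one of these values exceeded every mesenchymal value, of which the highest was 1.47 CPM. The fold over mesenchyme was 27.7 (log2 4.79 ± 0.193 SE). After thinning, 13.1 ± 1.92% of muscle progenitors had an *Lgr5* UMI (SD). The mesenchymal UMIs of *Lgr5* numbered 815 in all.

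*Lgr4*, the most widely expressed receptor of the family, was detected in mesenchyme, muscle progenitors, ectoderm and erythroid cells. Its mean level was 15.8 ± 2.77 CPM in mesenchyme and 28.4 ± 9.58 CPM in muscle progenitors (SD, n = 9 libraries), a log2 difference of 0.95 that passed the test. Ectodermal cells, at 13.0 ± 2.63 CPM (SD, n = 6 libraries), did not pass it (log2 difference -0.24, adjusted p = 0.094, edgeR). In endothelium *Lgr4* was lower, at 2.10 ± 0.291 CPM (SD, n = 7 libraries), a log2 difference of -2.69. In erythroid cells the direction depended on the scaling. The CPM were 12.7 ± 7.09 (SD, n = 7 libraries) against a mean of 15.1 in the mesenchyme of the same libraries, lower in 5 of 7 libraries, while with TMM scaling *Lgr4* was called higher (log2 difference 1.04, adjusted p = 1.14e-07, edgeR), as it was in all 16 alternatives, all of which scale the libraries (0.92 to 1.16).

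*Lgr6* had few UMIs in any lineage, with 101 in all mesenchymal cells of the 9 libraries and 60 in the ectodermal sums used here. Its level was highest in ectoderm. In the 6 libraries with at least 20 ectodermal cells it was at 10.0 and 3.39 CPM in Wt replicates 1 and 2, at 3.75 and 1.61 CPM in *E1C8*Δ/Δ replicates 2 and 3 and at 5.76 and 4.37 CPM in *E1C5*Δ/Δ replicates 1 and 3. All 6 values lay above the mesenchymal range of 0.0548 to 0.122 CPM, with a fold of 51.5 (log2 5.69).

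The E3 ligases were both highest in ectoderm, but only *Znrf3* was also present throughout the mesenchyme. *Rnf43* stood at 17.1 and 14.0 CPM in ectoderm of Wt replicates 1 and 2, at 10.1 and 11.2 CPM in *E1C8*Δ/Δ replicates 2 and 3 and at 7.49 and 14.9 CPM in *E1C5*Δ/Δ replicates 1 and 3. Its mesenchymal level never passed 0.163 CPM, and the fold was 119 (log2 6.89). Erythroid and myeloid cells held it at 0.956 ± 1.00 (SD, n = 7 libraries) and 1.03 ± 1.17 CPM (SD, n = 5 libraries). *Znrf3* was at 29.9 ± 8.998 CPM in ectoderm (SD, n = 6 libraries) and at 12.5 ± 2.06 CPM in mesenchyme (SD, n = 9 libraries), a fold of 2.43 (log2 1.28). In muscle progenitors *Znrf3* was at 12.4 ± 3.13 CPM and did not pass the test (adjusted p = 0.059, edgeR).

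Within the ectoderm, *Rspo2* was found in the cells of the apical ectodermal ridge. Of 575 ectodermal cells, 81 had at least 2 UMIs of *Fgf8*, and their median depth of 16270 UMIs was close to the 17456.5 UMIs of the other 494. *Rspo2* gave 116.5 CPM in the *Fgf8* cells, with an exact 95% Poisson interval of 101.5 to 133.2 CPM that covers counting error only, and 1.60 CPM (0.976 to 2.47) in the others. It was present in 57 of the 81 cells (70.4%) and in 3.44% of the rest. The ligase *Znrf3* gave 65.8 CPM (54.7 to 78.6) in the *Fgf8* cells and 24.6 CPM (21.9 to 27.5) in the others. *Rspo3* went the other way, with 2.16 CPM in *Fgf8* cells and 7.11 CPM elsewhere, and *Lgr5* had no UMI in *Fgf8* cells, which allows up to 1.99 CPM by the same interval.

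Over libraries, *Rspo2* and *Znrf3* were higher in the *Fgf8* cells in 9 of 9 libraries (two-sided exact paired permutation test, p = 0.00391 each, the smallest possible, 0.0176 after Benjamini-Hochberg adjustment over the 9 members). *Rspo3* was lower in 7 of 9 libraries and higher in none (exact p = 0.0156, adjusted 0.0469). It had only 4 UMIs in the *Fgf8* cells, and its ectodermal level lay within the range of the mesenchymal markers. The part of free RNA in this difference was not tested. None of the other 6 members passed, with *Rspo1* (exact p = 0.0625, lower in 5 of 9 libraries) and *Lgr6* (exact p = 0.0664, higher in 7 of 9) the nearest. The number of *Fgf8* cells was 1 to 21 per library, and this comparison was added after the values had been seen.

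**Figure D2:**
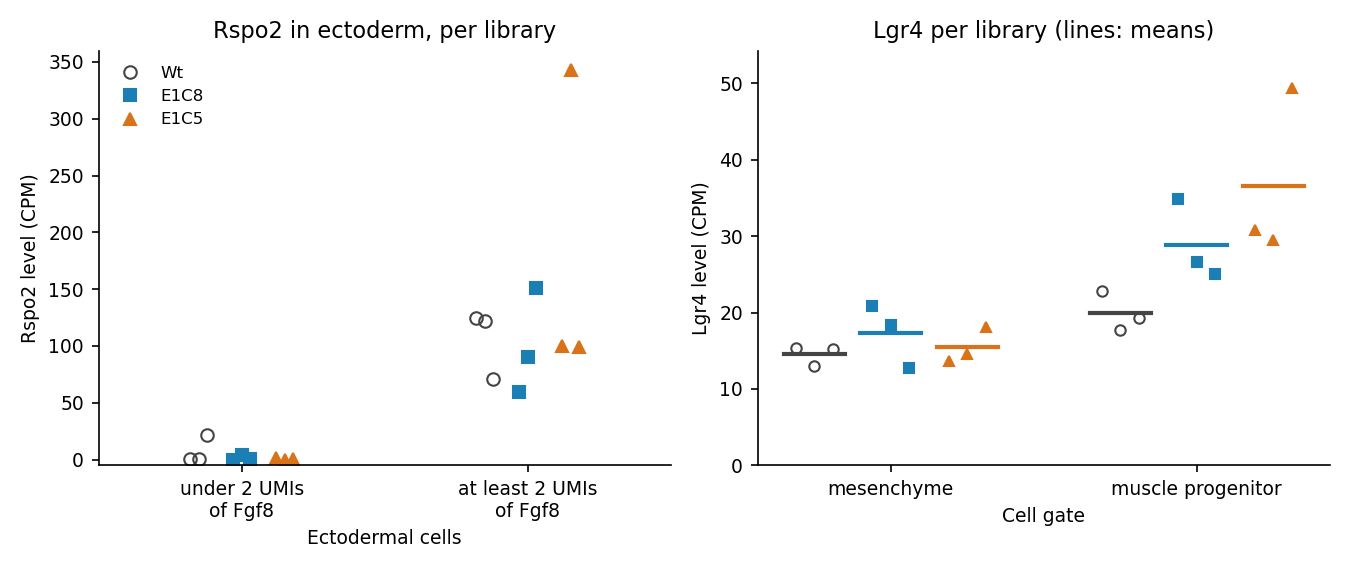
*Rspo2* CPM in ectodermal cells with under 2 or with at least 2 *Fgf8* UMIs, and *Lgr4* CPM in mesenchyme and in muscle progenitors, with a point per library coloured by genotype. *Rspo2* is higher in the *Fgf8* cells of each of the 9 libraries, and *Lgr4* in muscle progenitors is at 17.7 to 22.8 CPM in Wt and at 25.03 to 49.4 CPM in the mutants.

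Within the mesenchyme the 4 R-spondins were highest in different regions. Of 75 pairs of a member and a region, each tested against all other mesenchymal cells of the same libraries, 24 were called higher and 30 lower by edgeR, against 45.2% of all genes tested. *Lgr6* and *Rnf43* had too few UMIs for a test in any region.

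*Rspo3* had its highest level in the proximal posterior region M2, marked by *Osr1* and *Tbx3*. It stood there at 145, 148 and 77.2 CPM in Wt, at 164, 132 and 152 CPM in *E1C8*Δ/Δ and at 183, 133 and 144 CPM in *E1C5*Δ/Δ. Every library but Wt replicate 3 was above 130 CPM, and the level exceeded that of other mesenchyme 2.44-fold (log2 1.29 ± 0.0718 SE). The lowest level was 24.8 ± 6.13 CPM (SD, n = 9 libraries) in the peripheral region P3, a log2 difference of -1.43. With cells chosen by UMIs of both leading markers of a region, the differences were 0.77 in M2 and -0.67 in P3, both still called.

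*Rspo4* was highest in the *Pax1*-marked proximal anterior region P1, at 68.1 ± 10.77 CPM, and in P3, at 53.5 ± 19.3 CPM (SD, n = 9 libraries). The log2 differences from other mesenchyme were 1.88 and 1.498. The study itself lists *Rspo4* among the genes that mark these regions, a list made on the same samples, and it was left out of the assignment here. *Rspo4* was lowest in the distal dorso-ventral region M3, at 5.91 CPM.

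*Rspo2* and *Rspo1* were both highest in scapular regions. *Rspo2* was at 35.8, 29.9 and 36.8 CPM in Wt, at 45.8, 38.9 and 35.8 CPM in *E1C8*Δ/Δ and at 41.6, 30.3 and 42.5 CPM in *E1C5*Δ/Δ in the proximal scapular region C2, marked by *Gsc* and *Irx3*. No genotype stood apart there, and the fold over other mesenchyme was 4.07 (log2 2.02 ± 0.0528 SE). *Rspo1* led in the proximal anterior scapular region C3, marked by *Emx2*, at 28.9 ± 8.12 CPM (SD, n = 8 libraries), a fold of 7.06 (log2 2.82 ± 0.214 SE). Both ligands were nearly absent from the zeugopod region M4, at 0.514 CPM for *Rspo1* and 1.18 CPM for *Rspo2*. Among the 4 ligands, *Rspo3* was the one that differed least from other mesenchyme in the distal P4 cells and in M4, by 0.32 and -0.22 on the log2 scale.

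The receptor *Lgr4* was measured in all 11 regions. It was highest in C3, at 25.9 ± 4.82 CPM (SD, n = 8 libraries), and lowest in the distal autopod region P4, marked by *Hoxa13* and *Hoxd13*, at 7.90 ± 2.95 CPM (SD, n = 9 libraries). Its log2 differences from other mesenchyme were 0.69 and -1.07. In the order of the 11 regions the ranges of each neighbouring pair overlapped for *Lgr4*, *Lgr5* and *Znrf3*. *Znrf3* lay between 10.6 and 15.4 CPM in all 11 regions. *Lgr5* stayed low, and its order among regions differed between genotypes, with means in M2 of 2.80 CPM in Wt (n = 3), 0.596 CPM in *E1C8*Δ/Δ (n = 3) and 0.895 CPM in *E1C5*Δ/Δ (n = 3), and in P3 of 1.66, 1.07 and 1.03 CPM. Its excess over other mesenchyme in P3 (log2 1.18) depends on the assignment of cells: with P3 taken instead as the cells with UMIs of both *Asb4* and *Lhx2* it was -0.07.

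Which members changed with the loss of *Grem1* enhancers was tested first over all mesenchymal cells. In the contrast of both mutants with Wt, 1 of the 9 members rose and none fell at an adjusted p under 0.05, against 2.16% of all 16141 genes tested. All 9 members passed the filter on low counts in that fit. The median log2 fold change of the members was 0.11, beside -0.01 for all genes. The mix of regions differed between genotypes. C1 held 1065 of 11294 mesenchymal cells in Wt, 891 of 12623 in *E1C8*Δ/Δ and 345 of 11407 in *E1C5*Δ/Δ. M4 held 691, 988 and 1482 in the same order, and C2, where *Rspo2* was highest, 653, 954 and 670. The part of this mix in the values over all mesenchymal cells was not tested.

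The gene that rose was *Rspo2*. It was at 8.73, 8.35 and 8.80 CPM in Wt, at 12.9, 13.0 and 11.3 CPM in *E1C8*Δ/Δ and at 12.1, 9.13 and 11.6 CPM in *E1C5*Δ/Δ. All 6 mutant libraries lay above all Wt libraries, with *E1C5*Δ/Δ replicate 2 the closest. The log2 fold change was 0.45 ± 0.0987 (SE, adjusted p = 0.0356, edgeR), and in *E1C8*Δ/Δ alone it was 0.50 ± 0.113 (adjusted p = 0.0203, edgeR). The change in *E1C5*Δ/Δ alone was 0.40 and missed the threshold (adjusted p = 0.110, edgeR). The call was narrow: it was lost when any of 7 of the 9 libraries was left out (log2 fold change 0.40 to 0.50 over all 9, adjusted p = 0.0646 to 0.106 where lost, edgeR), and with embryo sex as a covariate it was 0.30 (adjusted p = 0.364, edgeR). Those 7 libraries were the 3 of Wt, *E1C5*Δ/Δ replicate 1 and the 3 of *E1C8*Δ/Δ. The call in *E1C8*Δ/Δ alone was lost without Wt replicate 1 or 2 or any *E1C8*Δ/Δ library (adjusted p = 0.0522 to 0.0841, edgeR). Thinned to equal depth, 7.19 ± 0.175% of Wt cells (n = 3) and 9.70 ± 0.737% of mutant cells (n = 6) had a *Rspo2* UMI (SD, exact permutation p = 0.0238, the smallest the design allows, 0.0298 adjusted over 5 such comparisons). With all UMIs the shares were 18.0% and 20.5% (exact p = 0.381). The 5 comparisons were picked where levels already differed between genotypes. Such shares count the same UMIs again, so their p-values are no independent support.

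*Rspo4* missed the threshold of edgeR's test over the whole mesenchyme. It was at 22.3, 13.9 and 11.5 CPM in Wt, at 24.9, 24.7 and 21.003 CPM in *E1C8*Δ/Δ and at 23.9, 29.6 and 33.7 CPM in *E1C5*Δ/Δ. Wt replicate 1 overlapped the mutants and the other Wt libraries did not. The log2 fold change was 0.72 ± 0.177 (SE, adjusted p = 0.0657, edgeR) and became 1.03 without Wt replicate 1 (adjusted p = 0.0027, edgeR). It was also called by DESeq2 (0.73, adjusted p = 0.00103) and with doublets kept (0.77, adjusted p = 0.048, edgeR), and not in the other 14 alternatives. Thinned to equal depth, 10.9 ± 3.66% of Wt cells (n = 3) and 19.4 ± 2.74% of mutant cells (n = 6) had a *Rspo4* UMI, without overlap (SD, exact permutation p = 0.0238, 0.0298 adjusted over the same 5 comparisons), and with all UMIs the shares were 26.2% and 40.2% (exact p = 0.0714). The other 7 members had adjusted p-values of 0.191 and above, among them *Lgr5* with a log2 fold change of -0.66 (-0.34 without Wt replicate 3), *Lgr4* with 0.18 and *Znrf3* with 0.16.

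Each mutant was also set against the other, since the deletions differ. In *E1C8*Δ/Δ alone, 1 of 9 members was called against 9.29% of all genes. In *E1C5*Δ/Δ alone none of 9 was called by edgeR against 1.54%. There 5 had an unadjusted p under 0.05 by edgeR and 2 were called by DESeq2. The shares of all genes for those 2 counts are not given here, so they say nothing about the members as a set. Between the mutants 1 of 9 differed, *Rspo1*, against 9.94% of all genes, a share near that of the members. *Rspo1* was at 8.06, 8.80 and 6.62 CPM in *E1C8*Δ/Δ, at 4.25, 3.03 and 4.67 CPM in *E1C5*Δ/Δ and at 4.27, 6.51 and 6.91 CPM in Wt. The mutants did not overlap, and Wt lay between and across them. The log2 difference of *E1C8*Δ/Δ from *E1C5*Δ/Δ was 0.88 ± 0.197 (SE, adjusted p = 0.0181, edgeR). Without *E1C5*Δ/Δ replicate 2, *E1C8*Δ/Δ replicate 1 or *E1C8*Δ/Δ replicate 2 the adjusted p became 0.0568, 0.0527 and 0.0837 (edgeR).

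**Figure D3:**
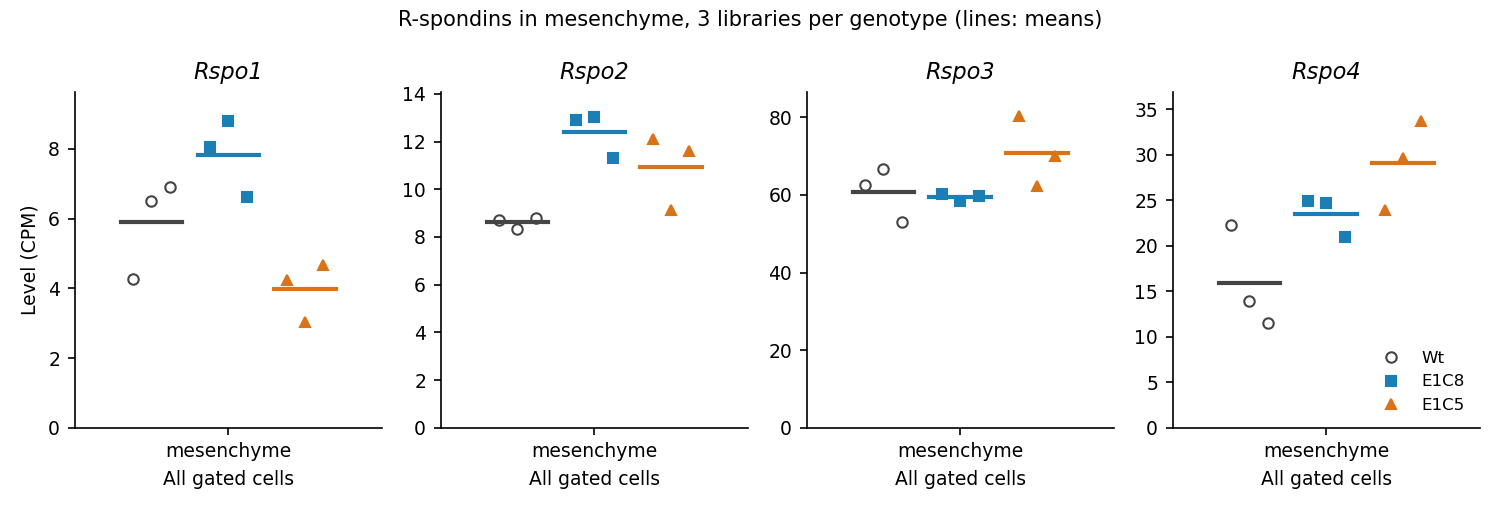
CPM of *Rspo1*, *Rspo2*, *Rspo3* and *Rspo4* in all mesenchymal cells, with a point per library and a line at the mean of each genotype. *Rspo2* is at 8.35 to 8.80 CPM in Wt and at 9.13 to 13.0 CPM in the mutants, and *Rspo1* separates *E1C8*Δ/Δ from *E1C5*Δ/Δ.

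The same comparison was made in each region. Of 65 pairs of a member and a region with counts enough for a test in the mutants against Wt, 5 were called, all of them *Rspo4* and all higher, against 0.665% of all genes tested over the 11 regions. They lay in the distal autopod (P4), the zeugopod (M4) and the posterior *Shh* region (P2). The others were the proximal posterior region (M2) and the proximal connective tissue (M1). From the same libraries, the study already reports *Rspo4* as upregulated in the mutants in its P4 and P2 clusters.

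In P4, where Wt cells held little *Rspo4*, its level was 5.47, 3.05 and 1.44 CPM in Wt, 21.1, 14.0 and 12.1 CPM in *E1C8*Δ/Δ and 17.7, 24.9 and 36.3 CPM in *E1C5*Δ/Δ. The lowest mutant library was above the highest Wt library. The fold was 5.54 (log2 2.47 ± 0.297 SE, adjusted p = 0.00089, edgeR), with 4.10 in *E1C8*Δ/Δ (adjusted p = 0.00516, edgeR) and 7.48 in *E1C5*Δ/Δ (adjusted p = 0.000876, edgeR). This call was made in all 18 other settings that gave a value, at log2 fold changes of 1.75 to 2.90 and an adjusted p of at most 0.0444 (edgeR or DESeq2). After thinning, 3.06 ± 1.90% of Wt P4 cells (n = 3) and 16.8 ± 6.39% of mutant P4 cells (n = 6) had a *Rspo4* UMI (SD, exact permutation p = 0.0238, the smallest possible, 0.0298 adjusted over 5). With all UMIs the shares were 12.7% and 38.1%.

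The P4 cells were also fewer and differed in their own markers. They made up 7.02%, 6.84% and 8.05% of Wt mesenchymal cells, 5.56%, 3.61% and 3.34% in *E1C8*Δ/Δ and 1.39%, 2.69% and 2.83% in *E1C5*Δ/Δ, and numbered 26 to 430 per library. Of the 5 genes that define P4, *Hoxd13*, *Jag1* and *Tfap2b* fell in the mutants, by 0.55, 1.17 and 1.47 on the log2 scale. *Hoxa13*, the autopod Hox gene, was at -0.28 and *Hey1* at 0.09, which did not pass. Of the 5 markers of P3, a region with much *Rspo4*, *Msx1* rose by 0.98 in P4 cells. The other 4 were positive and not called: *Lhx9* 0.35, *Lhx2* 0.26, *Asb4* 0.21 and *Dlx5* 0.01 (adjusted p = 0.098, 0.42, 0.43 and 0.99, edgeR). The study reports *Msx1*, *Lhx2*, *Asb4* and *Lhx9* as upregulated and *Hoxa13* as reduced in its P4 cluster. It used a Wilcoxon test over cells, in clusters rather than in cells assigned by markers. The 2 tested markers of P1, where *Rspo4* was highest, were not called and had a median log2 fold change of -0.69. Of the markers of other regions, 1 of 3 tested for the proximal scapular region C2, where *Rspo4* was at 39.8 CPM, and 2 of 5 for M2 were called higher in P4 cells, and 2 of 4 for M3 lower. The part of these marker shifts in the *Rspo4* result was not tested.

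In M4, marked by *Hoxa11* and *Hoxd11*, *Rspo4* was at 8.25, 4.22 and 2.60 CPM in Wt, at 12.3, 11.1 and 11.9 CPM in *E1C8*Δ/Δ and at 16.3, 16.4 and 19.5 CPM in *E1C5*Δ/Δ. The groups did not overlap, and the fold was 2.44 (log2 1.29 ± 0.202 SE, adjusted p = 0.0034, edgeR). Of the 5 M4 markers none was called, but the cells were assigned by these markers, which limits how far they can differ. In the same cells 1 of 5 P3 markers was called higher and 2 of 5 M3 markers lower. The call was lost without Wt replicate 2 (log2 1.05, adjusted p = 0.0539, edgeR).

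The posterior and proximal regions gave smaller changes. In P2, the region of the *Shh*-expressing organiser, *Rspo4* was at 13.5, 7.40 and 9.06 CPM in Wt, at 16.0, 13.9 and 17.1 CPM in *E1C8*Δ/Δ and at 19.1, 27.8 and 38.9 CPM in *E1C5*Δ/Δ (log2 fold change 1.10 ± 0.215, adjusted p = 0.0239, edgeR). In M1 the levels were 7.74, 7.41 and 6.05 CPM in Wt, 17.4, 10.9 and 9.80 CPM in *E1C8*Δ/Δ and 15.6, 17.4 and 14.7 CPM in *E1C5*Δ/Δ (0.88 ± 0.165, adjusted p = 0.0121, edgeR). In M2 they were 7.81, 6.74 and 3.12 CPM in Wt, 24.4, 16.8 and 9.64 CPM in *E1C8*Δ/Δ and 14.3, 19.6 and 18.3 CPM in *E1C5*Δ/Δ (1.27 ± 0.249, adjusted p = 0.0421, edgeR). No mutant library fell within the Wt range in any of the 3 regions. Markers moved in these cells too. In P2, 1 P3 marker was called higher and 2 M1, 2 M3 and 1 P4 markers lower, and none of its own, by which its cells were assigned. In M1, 1 M4 marker was called higher and 3 M3 markers and 1 each of C1, P1, M2 and M1 lower. In M2, 1 of its own markers was called lower, and the 5 P3 markers had a median of 0.87 with none called. Their part in the *Rspo4* values was not tested. With embryo sex as a covariate, P4 was the only one of the 5 regions still called, while the log2 fold changes elsewhere were 1.30 in M4, 1.18 in P2, 1.08 in M2 and 0.84 in M1 (adjusted p = 0.0696, 0.133, 0.522 and 0.276, edgeR). The values of M1 and M2 depended on how the cells were chosen. With regions taken as the cells with UMIs of both leading markers they fell to 0.33 and 0.36 (adjusted p = 0.510 and 0.419, edgeR), against 1.75 in P4, 1.064 in M4 and 1.13 in P2, of which only P4 was called (adjusted p = 0.0197, edgeR). The M1 call was made whichever library was left out, and with stricter assignment of cells it was lost (0.64, adjusted p = 0.0861, edgeR). The P2 call was lost without Wt replicate 2 (adjusted p = 0.139), Wt replicate 3 (0.0975), *E1C8*Δ/Δ replicate 1 (0.0534) or *E1C8*Δ/Δ replicate 3 (0.0619, edgeR). The M2 call was lost without any of 6 libraries, with adjusted p-values from 0.076 to 0.201 (edgeR): each of the 3 Wt libraries, *E1C5*Δ/Δ replicates 2 and 3 and *E1C8*Δ/Δ replicate 2.

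**Figure D4:**
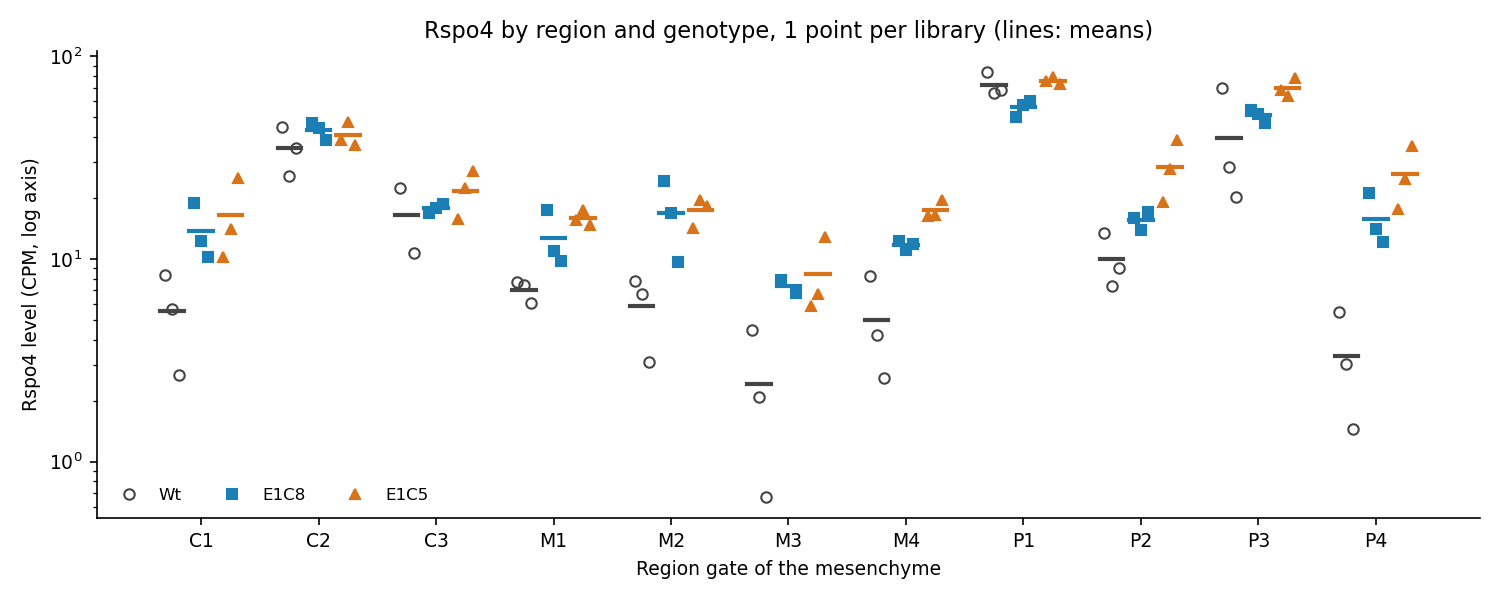
*Rspo4* CPM in the 11 mesenchymal regions on a log axis, with a point per library coloured by genotype. Wt libraries lie below all mutant libraries in P4, M4, P2, M2, M1, C1 and M3. In P1, where the gene is highest, they mix with those of *E1C5*Δ/Δ and lie above those of *E1C8*Δ/Δ.

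In the regions where *Rspo4* was already high, no rise was called. The study likewise reports no differential expression of *Rspo4* in its P1 and P3 clusters. P1 had 83.7, 65.6 and 68.0 CPM in Wt, 50.4, 57.6 and 60.5 CPM in *E1C8*Δ/Δ and 75.4, 78.9 and 73.0 CPM in *E1C5*Δ/Δ (log2 fold change -0.12, adjusted p = 0.685, edgeR). Each *E1C8*Δ/Δ library lay below each Wt library there. The log2 fold change was -0.34 in *E1C8*Δ/Δ alone and 0.11 in *E1C5*Δ/Δ alone, neither called (adjusted p = 0.182 and 0.923, edgeR). P3 had 69.9, 28.3 and 20.2 CPM in Wt, 54.2, 52.1 and 47.1 CPM in *E1C8*Δ/Δ and 68.3, 63.4 and 78.0 CPM in *E1C5*Δ/Δ (0.59, adjusted p = 0.499, edgeR), with Wt replicate 1 far above the other Wt libraries. The difference between regions was itself tested, after these values had been seen, in fits that kept each library as a block. The log2 fold change in P4 exceeded that in P1 by 2.57 ± 0.325 (SE, adjusted p = 0.00947, edgeR) and that in P3 by 1.89 ± 0.166 (adjusted p = 1.2e-11, edgeR). For M4 the excess was 1.41 over P1 and 0.86 over P3, and for M1 it was 0.93 over P1, all called by edgeR. The excess of P2 (1.23) and of M2 (1.32) over P1 did not pass, with adjusted p-values of 0.176 and 0.457 (edgeR), and that of P2, M2 and M1 over P3 did not pass either. In C1 and M3 *Rspo4* had log2 fold changes of 1.31 and 1.56 and did not pass (adjusted p = 0.0788 and 0.0945, edgeR).

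The other R-spondins gave no call in the mutants together in any region. *Rspo2* had a positive log2 fold change in 11 of 11 regions, the lowest being 0.21 in C2 and 0.25 in P1. These regions are parts of the same libraries and of the mesenchyme where *Rspo2* was called, so they are not separate observations. The share of all genes with the same direction in every region is not given here. Values were 0.79 in the chondrogenic core C1, 1.02 in M3 and 1.32 in P4 (adjusted p = 0.108, 0.0702 and 0.0675, edgeR). In *E1C5*Δ/Δ alone, *Rspo2* was called higher in those 3 regions, at 1.246, 1.27 and 1.70 (adjusted p = 0.0253, 0.0253 and 0.041, edgeR). Without *E1C5*Δ/Δ replicate 3 the value in C1 was 0.74 (adjusted p = 0.367, edgeR). Over all members and regions, *E1C5*Δ/Δ alone gave 10 higher and 2 lower calls of 65, against 0.563% of all genes, and *E1C8*Δ/Δ alone gave 3 higher, against 3.34%. Of these, *Rspo4* of *E1C5*Δ/Δ in P4, M4, P2 and M1 was called whichever library was left out (adjusted p at most 0.00827, 0.0176, 0.0369 and 0.0493, edgeR), as was that of *E1C8*Δ/Δ in P4 (at most 0.0317). The *Rspo4* call in M4 of *E1C8*Δ/Δ was lost in 4 of 9 such fits (adjusted p up to 0.126, without Wt replicate 2 or any *E1C8*Δ/Δ library) and its log2 fold change of 0.98 became 1.499 without Wt replicate 1, and that in M2 in 7 of 9 for each mutant (up to 0.230 and 0.175, edgeR).

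Between the mutants, 5 of the 65 pairs of a member and a region were called, against 3.61% of all genes tested, and all were of *Rspo1* or *Rspo3*. *Rspo1* in C2 was at 13.0, 12.6 and 30.7 CPM in Wt, at 10.1, 15.2 and 15.5 CPM in *E1C8*Δ/Δ and at 4.62, 4.40 and 3.82 CPM in *E1C5*Δ/Δ. Only *E1C5*Δ/Δ stood apart, with a log2 fold change of -1.92 from Wt (adjusted p = 0.0245, edgeR) and a difference between the mutants of 1.72 (adjusted p = 0.0145, edgeR). *Rspo1* also fell in M1 of *E1C5*Δ/Δ (-2.05, adjusted p = 0.0455, edgeR), and in M2 the mutants differed by 1.11 (adjusted p = 0.0346, edgeR). *Rspo3* in M1 was at 53.0, 45.1 and 33.0 CPM in Wt, at 60.9, 48.9 and 37.2 CPM in *E1C8*Δ/Δ and at 102, 63.9 and 117 CPM in *E1C5*Δ/Δ. The *E1C5*Δ/Δ libraries were the 3 highest, with a log2 fold change of 1.15 (adjusted p = 0.0455, edgeR) and a difference of *E1C8*Δ/Δ from *E1C5*Δ/Δ of -1.09 (adjusted p = 0.0201, edgeR). *Rspo3* also rose in P3 of *E1C5*Δ/Δ (0.72, adjusted p = 0.0381, edgeR), and the mutants differed in C1 by -0.92 and in M3 by -0.63 (adjusted p = 0.0466 and 0.0261, edgeR). None of these regional calls of *Rspo1*, *Rspo2* and *Rspo3* was made whichever library was left out. *Rspo1* in C2 of *E1C5*Δ/Δ was lost without any of the 3 *E1C5*Δ/Δ libraries (adjusted p = 0.0559 to 0.0780, edgeR), *Rspo3* in P3 without any of the 9 libraries (0.0545 to 0.119), and the others without 3 to 7 of the 9.

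**Figure D5:**
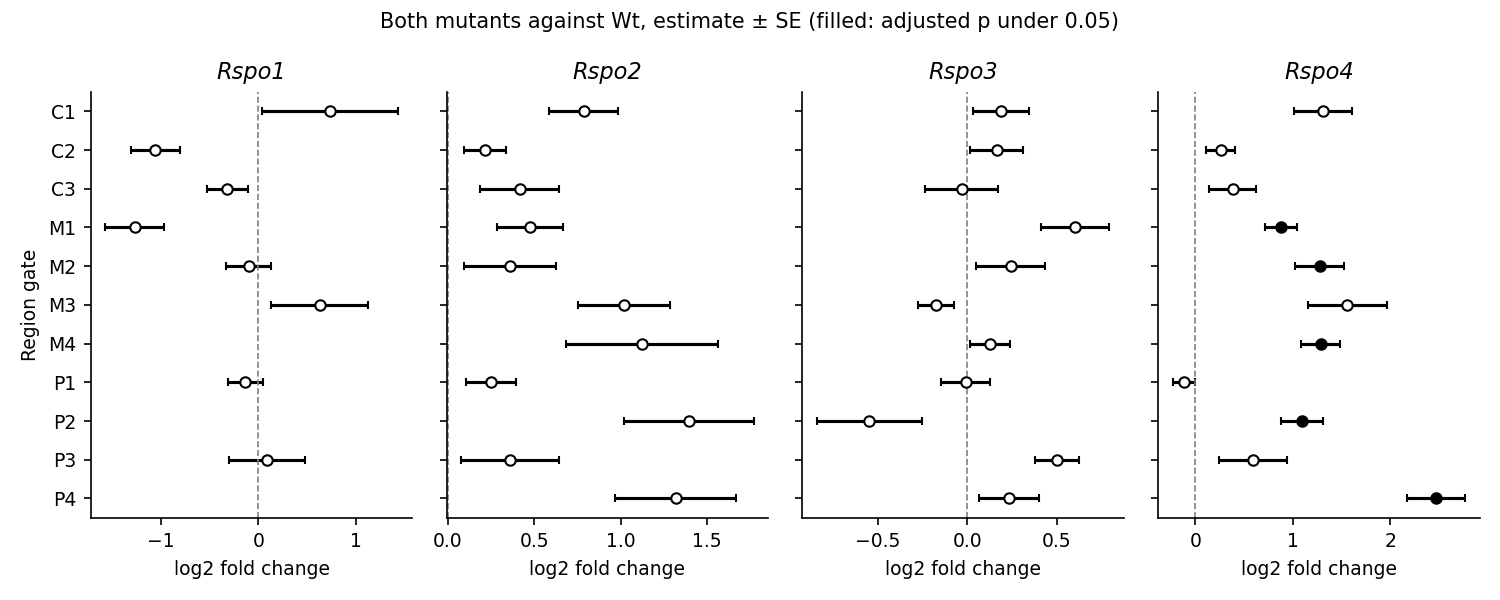
Log2 fold change of both mutants against Wt (± SE) of the 4 R-spondins in each mesenchymal region where the gene could be tested, with filled points at an adjusted p under 0.05. The 5 filled points are *Rspo4* in P4, M4, M2, P2 and M1, with the largest change in P4 (2.47). The *Rspo2* points lie above 0 in all 11 regions, which share the same libraries, and none of them is filled.

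Of the receptors, *Lgr4* in muscle progenitors was the one called with genotype. Across muscle, erythroid, ectodermal and endothelial cells, 18 pairs of a member and a lineage could be tested and 1 was called, against 0.344% of all genes tested. *Lgr4* was at 22.8, 17.7 and 19.2 CPM in Wt, at 34.9, 26.6 and 25.03 CPM in *E1C8*Δ/Δ and at 30.8, 29.6 and 49.4 CPM in *E1C5*Δ/Δ muscle progenitors. All mutant libraries were above all Wt libraries. The log2 fold change was 0.67 ± 0.149 (SE, adjusted p = 0.0290, edgeR), and 0.92 in *E1C5*Δ/Δ alone (adjusted p = 0.0039, edgeR). The call of the mutants together was lost without Wt replicate 2 (adjusted p = 0.112), Wt replicate 3 (0.0847), *E1C8*Δ/Δ replicate 1 (0.0598) or *E1C8*Δ/Δ replicate 2 (0.068, edgeR), while that of *E1C5*Δ/Δ alone was made whichever library was left out (adjusted p = 0.0048 to 0.0301, edgeR). With embryo sex as a covariate the log2 fold change was 0.51 (adjusted p = 0.466, edgeR).

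A larger difference that missed the threshold was that of *Lgr5* in M2, at 2.15, 1.94 and 4.29 CPM in Wt, at 0, 1.19 and 0.597 CPM in *E1C8*Δ/Δ and at 0.310, 1.88 and 0.492 CPM in *E1C5*Δ/Δ. The groups did not overlap, with *E1C5*Δ/Δ replicate 2 close to the lowest Wt library. These levels rest on 0 to 30 UMIs per library, and the log2 fold change was -1.80 ± 0.469 (SE, adjusted p = 0.137, edgeR), with -1.62 for *E1C8*Δ/Δ alone and -1.97 for *E1C5*Δ/Δ alone.

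In the muscle progenitors none of the 6 mesenchymal markers was called, with a median log2 fold change of 0.16, and none of the 7 muscle markers, with a median of -0.19. The 3 erythroid markers tested had a median of -1.11 and the 4 ectodermal markers 0.15, with none called. The 1 endothelial and the 1 myeloid marker tested were at 0.64 and 0.45, not called either. Cells were assigned by these markers, so their values cannot show that the cells were alike between genotypes. *Lgr5*, the receptor that marks these cells, did not pass (log2 fold change -0.12, adjusted p = 0.789, edgeR). After thinning, 16.7 ± 3.00% of Wt cells (n = 3) and 26.0 ± 6.61% of mutant cells (n = 5 libraries with enough deep cells) had an *Lgr4* UMI (SD, exact permutation p = 0.0357, the smallest possible, 0.0357 adjusted over 5), and with all UMIs 47.3% and 52.0% (exact p = 0.595). In ectoderm *Rspo2* had a log2 fold change of -0.87 and *Rspo3* of 1.26, neither past the threshold (adjusted p = 0.992 each, edgeR), from 2 libraries of each genotype. In these libraries *Fgf8* cells were 9 of 52 and 19 of 87 ectodermal cells in Wt. They were 21 of 145 and 17 of 124 in *E1C8*Δ/Δ and 3 of 63 and 6 of 75 in *E1C5*Δ/Δ. *Rspo2* in the *Fgf8* cells was at 124 and 122, 90.4 and 151, and 100 and 98.8 CPM in the same order. The part of the number of *Fgf8* cells in the ectodermal *Rspo2* value was not tested.

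The machinery on which these genes act was described from lists of WNT receptors, WNT effectors and targets, heparan sulfate proteoglycans and BMP receptors, in the same mesenchymal fit and against the same background of 2.16% of all genes. Among 15 WNT receptors and co-receptors, none rose and 1 fell, and the median log2 fold change was -0.21. It was the Frizzled receptor *Fzd4*, at 5.66 ± 0.472 CPM in Wt (n = 3) and 3.68 ± 0.746 CPM in the mutants (n = 6, SD, log2 fold change -0.62, adjusted p = 0.0156, edgeR). The receptor genes *Fzd2*, *Ryk*, *Lrp6* and *Fzd3* did not pass, at -0.03, -0.12, -0.21 and 0.01.

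Among 20 effectors and targets, none rose and 2 fell, with a median of -0.02. *Tcf7l2*, a DNA-binding partner of β-catenin, was at 218, 184 and 207 CPM in Wt, at 115, 140 and 131 CPM in *E1C8*Δ/Δ and at 92.5, 114 and 131 CPM in *E1C5*Δ/Δ, and its log2 fold change was -0.74 ± 0.0982 (SE, adjusted p = 0.00439, edgeR). The groups were well apart. Its relative *Tcf7l1*, which is known mainly as a repressor, was at 71.4 ± 5.84 CPM in Wt (n = 3) and 51.7 ± 4.20 CPM in the mutants (n = 6, SD, -0.45, adjusted p = 0.0235, edgeR), a call lost when Wt replicate 1 or 2, *E1C5*Δ/Δ replicate 1 or *E1C8*Δ/Δ replicate 1 or 3 was left out (adjusted p = 0.0515 to 0.0731, edgeR). *Lef1*, another gene of that family, had 0.29 and did not pass, like *Ctnnb1*, *Ccnd1* and *Gsk3b* (-0.12, -0.06 and -0.11). None of 8 tested heparan sulfate proteoglycans, co-receptors for R-spondins and WNTs, was called (median 0.13), nor any of 6 BMP receptors (median -0.02). *Gpc3* is X-linked and was not tested. With embryo sex as a covariate no listed gene was called, and the log2 fold changes were -0.67 for *Tcf7l2*, -0.62 for *Fzd4* and -0.38 for *Tcf7l1* (adjusted p = 0.0914, 0.198 and 0.288, edgeR). The part of embryo sex in these differences was not tested further.

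The members were also placed beside the genes with the most similar pattern over the 17 lineages and regions, by Pearson's r of log2(CPM + 1) averaged over libraries, among 10055 genes that reach 10 CPM in some group of cells. These values describe points that share libraries, and the regions are parts of the mesenchyme. *Rspo4* was close to *Alx1* (0.956) and *Prdm6* (0.932), *Rspo1* was closest to *Crnde* (0.952), *Irx5* (0.945) and *Rarb* (0.939), and *Rspo2* to *Scube3* (0.937), *Cnst* (0.929) and *Sfrp1* (0.925). *Rspo3* was closest to *Clmn* and *Sema5a* (0.936 each) and *Ddr2* (0.935). *Lgr5* had *Sp5* (0.944), *Cdh15* (0.941) and *Mybpc1* (0.932) as its nearest genes, and *Lgr4* had *Mettl26* (0.942), *Slc2a4* (0.886) and *Frs2* (0.880). *Znrf3* was closest to *Rac3* (0.971), *Dtnb* (0.965) and *Igsf9* (0.960), and *Rnf43* was close to *Tjp3* (0.971) and *Prap1* (0.970).

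In the genome (GRCm38, GENCODE M21 annotation), *Rspo4* lies on chromosome 2 from 151842927 to 151874668 and *Lgr4* on the same chromosome from 109917647 to 110014257. *Grem1* lies there from 113746164 to 113758646, which leaves 3.73 Mb to *Lgr4* and 38.1 Mb to *Rspo4*. *Rspo2* lies on chromosome 15 from 43020794 to 43170826, *Rspo3* on chromosome 10 from 29452416 to 29535867 and *Rspo1* on chromosome 4 from 124986430 to 125009099. The remaining genes are *Lgr5* on chromosome 10 (115450311 to 115587780), *Lgr6* on chromosome 1 (134983301 to 135105276) and, both on chromosome 11, *Znrf3* (5276324 to 5444847) and *Rnf43* (87662722 to 87735539).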

How the data were processed

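The authors deposited, for each library, a matrix of UMI counts per gene and barcode called as a cell, made with Cell Ranger 6.0.1 on mm10 from 10x 3′ libraries (v3.1 chemistry); their processing notes also name Seurat 4.3.0.1. The counts are as deposited, without normalization and before any filter on cells, and the last 4 of the 32289 features are transgene sequences that were left out. No column of another series was present. Libraries were grouped by the genotype in the labels, and each came from separate embryos.

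Barcodes passed the study's filters if they had over 2500 genes, under 200000 UMIs and a mitochondrial share below 10%. Doublets were called per library by the DoubletFinder approach (25% artificial doublets, 30 principal components, 2000 variable genes), at an assumed 0.8% per 1000 barcodes. A cell was given to a lineage when at least 3 of its markers, and of no other lineage's, had 2 or more UMIs each, and a mesenchymal cell to a region when its marker score exceeded 1 and led by 0.25. These limits were set after the marker counts had been seen. No member is a marker.

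UMIs were summed per library and group of cells (at least 20 cells), and genes outside X, Y and the mitochondrion that passed filterByExpr were tested with edgeR 4.0.16 (TMM scaling, quasi-likelihood test, Benjamini-Hochberg adjustment over all genes tested, threshold 0.05), with both mutants or each set against Wt, and with library as a block between groups of cells of the same libraries. For shares of cells, library labels were permuted exactly (two-sided), only in comparisons picked where levels already differed between genotypes. The adjustment of these p-values covers the picked comparisons alone. Other tools were limma 3.58.1, DESeq2 1.42.0, R 4.3.3, Python 3.11.15, numpy 2.4.6, scipy 1.17.1, pandas 2.3.3, scikit-learn 1.9.0 and matplotlib 3.10.9. Alternatives covered DESeq2, the scaling, filtering of low counts, a replicate block, a sex covariate, doublets, cell filters, stricter or other assignment of cells, 50 cells per group and leaving out each library.

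Tested on simulated counts with 200 changed genes, the mesenchymal comparison of both mutants with Wt recovered 41.5% of 1.5-fold and 72.5% of 2-fold changes, with 6 and 18 false calls. The members and lists were chosen with earlier results of these data known. Named genes are the 9 members, *Grem1*, listed genes past the threshold or, up to 4 per list, of highest level, and the 3 genes most like each member with at least 5 CPM in some group of cells. Some results of that kind are not reported here. The comparison of *Fgf8* cells, the tests of differences between regions and the marker shifts were added after seeing the data. Protein and genome sequences were not used here.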

Additional observations from a re-analysis of the deposited data

Results flagged for a closer look

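The mutants differed from each other in *Rspo1* and *Rspo3*. The effect of *E1C8*Δ/Δ less that of *E1C5*Δ/Δ on *Rspo1* was 0.88 on the log2 scale over all mesenchymal cells, 1.72 in the proximal scapular region C2 and 1.11 in the proximal posterior region M2. For *Rspo3* it was -0.92 in the chondrogenic core C1, -1.09 in the proximal connective tissue M1 and -0.63 in the dorso-ventral distal region M3. Each of these 6 differences passed edgeR's test of the difference itself, beside 9.94% of all genes in mesenchyme, near the members' own share of 1 of 9, and 3.61% over the regions, and since both effects are measured against the same 3 Wt libraries, each equals the direct difference between the mutants.

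The effect of both mutants on *Rspo4* differed between regions of the same libraries. It was larger in the distal autopod P4 than in the proximal anterior region P1 by 2.57 and than in the peripheral region P3 by 1.89, larger in the zeugopod M4 than in P1 by 1.41 and than in P3 by 0.86, and larger in M1 than in P1 by 0.93. These 5 differences were tested with an interaction term in edgeR after the regional values had been seen. From the same libraries, the study had reported *Rspo4* as upregulated in P4 and as not differentially expressed in P1 and P3. The share of P4 cells and the markers of P4 also differed between genotypes, as given with the values of *Rspo4*, and their part in the difference was not tested.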

How the results depend on the processing

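Of the values of named genes under alternative settings, 450 kept their direction and their side of the threshold, 60 lost their call, 3 gained one and 1 reversed. All 60 losses were in comparisons of genotypes, such as *Rspo2* over the mesenchyme (9 of 17), *Rspo4* in M2 (9 of 19) and *Rspo4* in P2 (8 of 19). *Rspo4* in P4 lost none of 18. The 450 include values never called, such as *Lgr5* over the mesenchyme in both mutants (17 of 17). The reversed value was *Lgr5* in P3 against other mesenchyme, at -0.0715 with cells chosen by both leading markers, against 1.18, and the cause was not tested. The sums of *E1C8*Δ/Δ replicate 1 and Wt replicate 3 are the smallest, and regions of under 50 cells in a library limit what can be called.

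Members called over all mesenchymal cells numbered 1 for both mutants, 1 for *E1C8*Δ/Δ, 0 for *E1C5*Δ/Δ and 1 between the mutants. DESeq2 called 2 for each of the first 3. With a sex covariate it was 0 for both mutants and for *E1C8*Δ/Δ, with doublets kept 2 for both mutants and 1 for *E1C5*Δ/Δ, and with over 1500 genes per cell 1 for *E1C5*Δ/Δ. Leaving out each library gave 0 to 1 in each of the 4. In other lineages the 1 call became 0 with a replicate block, a sex covariate or at least 50 cells, and 0 to 1 when a library was left out. In the regions the 5 calls became 11 by DESeq2, 1 with a sex covariate, 2 with at least 50 cells, 9 with over 1500 genes, and 2 to 8 when a library was left out. The 3 listed pathway genes became 5 by DESeq2, 0 with a sex covariate and 2 to 6 when a library was left out. Shares of mesenchymal cells with a UMI rose with all UMIs to 10.3% for *Rspo1*, 19.7% for *Rspo2*, 55.5% for *Rspo3*, 35.5% for *Rspo4*, 37.9% for *Lgr4* and 32.4% for *Znrf3*. Leaving out a library gave 32 to 37 calls of lineages against mesenchyme (34) and 48 to 57 of regions (54). The shares of all genes called under these alternatives are not given here, so these counts show only the dependence on the settings.

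Replicate numbers did not pair the libraries: the deviations of same-numbered libraries from their genotype means correlated by -0.421 to 0.0999 over 7840 genes, and 1 of 9 libraries correlated best with its own number. With the replicate number as a block, members called over all mesenchymal cells were 0 for both mutants and 0 between the mutants. Listed pathway genes were 1 and members in regions 6. The share of all genes called with this block is not given here.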

Other observations

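Over the 11 mesenchymal regions, Pearson's r of log2(mean CPM + 1) between the ligands was 0.88 for *Rspo1* and *Rspo2*, 0.49 for *Rspo2* and *Rspo3*, 0.38 for *Rspo1* and *Rspo3*, 0.31 for *Rspo1* and *Rspo4*, 0.24 for *Rspo2* and *Rspo4* and -0.43 for *Rspo3* and *Rspo4*. Over all 36 pairs of members it lay between -0.43 and 0.93. The highest value was that of *Lgr5* and *Rnf43*, of which *Rnf43* had only 118 UMIs in all mesenchymal cells. These are descriptions over regions that share the same libraries.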
